A study of Mus musculus with 21 samples.

Results

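Kidney-resident macrophages (KRM) were compared with CD11clo macrophages (CD11clo Mϕ) within stenotic kidneys, using all genes of the deposited count table. The members are 7 of the 21 libraries of the series, chosen by the population and treatment that their titles name: 3 libraries of KRM from kidneys with renal artery stenosis (RAS) and 4 of CD11clo Mϕ from RAS kidneys. All groups came from male C57BL/6J mice labelled with an age of 24 weeks and a flow sort time of 5 h, with no transgene or added agent. RAS was made with a small cuff around the right renal artery, and Sham mice had the surgery without a cuff. Both populations were sorted as F4/80+CD64+ cells after lymphocytes, NK cells, red cells and granulocytes had been gated out. KRM were taken as CD11bintCD11cint and CD11clo Mϕ as CD11bhi with low or no CD11c. Full-length cDNA was made from the low-input RNA before sequencing. The other libraries, from Sham kidneys (4 of KRM and 3 of CD11clo Mϕ) and of CD11chi Mϕ, are used here only to place these 7. Nothing in the labels ties a library to 1 animal, so p-values measure the spread between these samples, which may be technical.

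Macrophages of the kidney have more than one source. Resident macrophages are seeded before birth from embryonic progenitors and maintain themselves within the tissue, where they lie against the peritubular capillaries and take up material that crosses the vessel wall. Monocyte-derived macrophages arrive from the blood, and while they mature they lose monocyte genes such as Ly6c2 and Plac8. Narrowing of the renal artery starves the kidney of blood flow, tubules atrophy, capillaries are lost, and both kinds of macrophage are present in the same injured tissue.

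The 7 libraries held between 8667523 and 9960701 counts over 14607 to 17703 genes. Levels are given as CPM, counts scaled to the library's total after composition factors, always in the order of replicates 1 to 3 for KRM and 1 to 4 for CD11clo Mϕ, and 3 counts in a library correspond to at most 0.365 CPM. KRM RAS replicate 1 stood apart from the other KRM RAS libraries. Its distance to KRM RAS replicates 2 and 3 was 1.67 and 1.56, against 0.482 between those 2 libraries, while its distances to the 4 KRM Sham libraries were between 0.926 and 1.1. These are root mean square differences in log2 CPM over all genes that passed the filter in the 21 libraries. The nearest library of all was 1 of CD11chi Mϕ from RAS kidneys, at 0.882, in a group that reached 1.57. Mitochondrial transcripts made up 1.15% of the counts of KRM RAS replicate 1, against 4.51% and 4.86% in KRM RAS replicates 2 and 3 and 0.749% to 1.96% in CD11clo Mϕ. CD11clo RAS replicate 3 lay closest to KRM among the CD11clo Mϕ. On an axis taken from Sham kidneys alone (mean log2 CPM of 1474 genes higher in Sham KRM minus that of 1420 genes higher in Sham CD11clo Mϕ), it was at -1.13, where the other CD11clo RAS libraries were between -3.23 and -2.65. KRM RAS replicates 1, 2 and 3 were at 0.547, -0.448 and -0.256 on this axis, below the 4 KRM Sham libraries at 1.3 to 1.51. The genes of the axis were chosen with those Sham libraries, which favours high values for them. Calls and counts of called genes are therefore given with and without KRM RAS replicate 1, and values without CD11clo RAS replicate 3 are added for some genes whose call it changed.

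**Figure D1:**
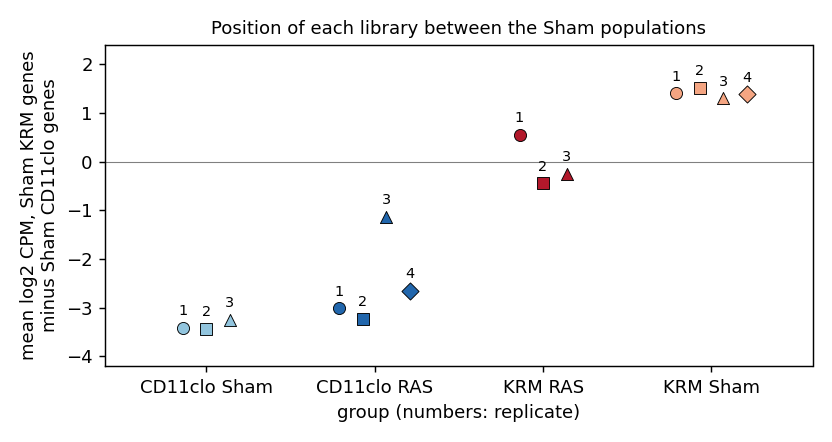
Position of each KRM and CD11clo library between the Sham populations. The y axis is the mean log2 CPM of 1474 genes higher in Sham KRM minus that of 1420 genes higher in Sham CD11clo Mϕ, each point is 1 library, and numbers are replicates. The 3 KRM RAS libraries lie between -0.448 and 0.547 and the 4 CD11clo RAS libraries between -3.23 and -1.13, with CD11clo RAS replicate 3 nearest to KRM.

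The sort markers were read first, as a check of the labels. Transcripts of CD11c and CD11b differed in the direction of the gates. Those of CD45 and Ly6C, which were not used to divide the populations, differed in the direction of the surface levels the study describes. Those of F4/80, CD64, CD43 and FcγRIV did not pass the test. Itgax, the CD11c integrin chain, was 270.0, 153 and 195 CPM in KRM and 8.46, 39.2, 57.4 and 49.9 CPM in CD11clo Mϕ. Its log2 fold change of KRM over CD11clo Mϕ was 2.41 ± 0.56 (SE, adjusted p = 0.0431), and 2.14 ± 0.61 (SE, adjusted p = 0.0464) without KRM RAS replicate 1. Every KRM library was above every CD11clo library. Itgam, the CD11b chain, was 278, 233 and 290.2 CPM in KRM and 1024, 1161, 888 and 1381 CPM in CD11clo Mϕ. For Itgam the log2 fold change was -2.06 ± 0.23 (SE, adjusted p = 0.013), and -2.12 ± 0.28 (SE, adjusted p = 0.00953) without KRM RAS replicate 1. Ly6c2, which encodes the monocyte antigen Ly6C, was 63.2, 6.37 and 6.46 CPM in KRM and 788, 668, 204 and 525 CPM in CD11clo Mϕ. For Ly6c2 the log2 fold change was -4.43 ± 1.03 (SE, adjusted p = 0.043), and -6.44 ± 0.69 (SE, adjusted p = 0.00702) without KRM RAS replicate 1. The groups did not overlap for either gene, and for Ly6c2 the nearest libraries across the groups were KRM RAS replicate 1 and CD11clo RAS replicate 3. Reads of Ly6c2 may be shared with its near-identical neighbour Ly6c1. Ptprc (CD45) was 1089, 562 and 738 CPM in KRM and 2079.7, 2059, 1438 and 2613 CPM in CD11clo Mϕ. For Ptprc the log2 fold change was -1.36 ± 0.32 (SE, adjusted p = 0.0445), and -1.68 ± 0.33 (SE, adjusted p = 0.0185) without KRM RAS replicate 1. It was lower in each KRM library than in any CD11clo library. Emr1, which encodes F4/80, was 1435, 936 and 1246 CPM in KRM and 877, 734, 1814 and 890.4 CPM in CD11clo Mϕ (log2 fold change 0.16 (adjusted p = 0.779) and -0.01 (adjusted p = 0.983) without KRM RAS replicate 1), and the highest library of all was CD11clo RAS replicate 3. Spn (CD43) was 80.2, 37.9 and 41.2 CPM in KRM and 51.6, 30, 36.6 and 42.4 CPM in CD11clo Mϕ, with overlapping groups (log2 fold change 0.40 (adjusted p = 0.396) and -0.05 (adjusted p = 0.894)).

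Markers of other cell types moved with the groups and with single libraries. For each list the summed CPM of all its genes is given. Neutrophil markers summed to 71.2 to 138 CPM in KRM and to 2480 to 5000 CPM in CD11clo Mϕ, and Ly6g, which defines mature neutrophils, had 0 counts in KRM and 7 counts over the 4 CD11clo libraries, although Ly6G was part of the excluded gate. Epithelial markers of the loop of Henle, distal tubule and collecting duct were highest in KRM RAS replicates 2 and 3, and those of the proximal tubule in replicate 1. The 7 collecting duct markers summed to 5.51, 1610 and 1200 CPM in KRM and to at most 69 CPM in CD11clo Mϕ. The 6 markers of the loop of Henle and distal tubule summed to 109, 3150 and 2410 CPM in KRM and to at most 361 CPM in CD11clo Mϕ, and the 6 general epithelial markers to 63.3, 2180 and 1680 CPM and to at most 82.8 CPM. For all 3 lists KRM RAS replicate 1 was within the range of CD11clo Mϕ. The 12 proximal tubule markers were high in all 3 KRM libraries, at 2320, 1350 and 1260 CPM, against 86.4 to 891 CPM. KRM RAS replicate 1 held the most T and NK cell markers (432 CPM, against 46.5 and 42 in the other KRM and 15.3 to 43.4 in CD11clo Mϕ), B and plasma cell markers (416 CPM, against 74.6 to 74.9 and 34.3 to 94.8) and erythroid markers (1330 CPM, against 441 to 492 and 70.4 to 673). None of the 9 T and NK cell markers was at 0 in any KRM library. Sums of the 12 dendritic cell markers (267 to 752 CPM in KRM and 495 to 778 CPM in CD11clo Mϕ) and of the 20 immediate early and dissociation stress genes (28800 to 31400 and 27400 to 38100 CPM) overlapped. Podocyte markers (2.75 to 82.1 and 0.824 to 41.1 CPM), endothelial markers (30.4 to 237 and 60.8 to 318 CPM) and fibroblast and pericyte markers (42.1 to 595 and 9.48 to 410 CPM) overlapped as well. The part of these markers in the results was not tested. In sorted pools, fewer cells of a type and less RNA per cell cannot be told apart.

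**Figure D2:**
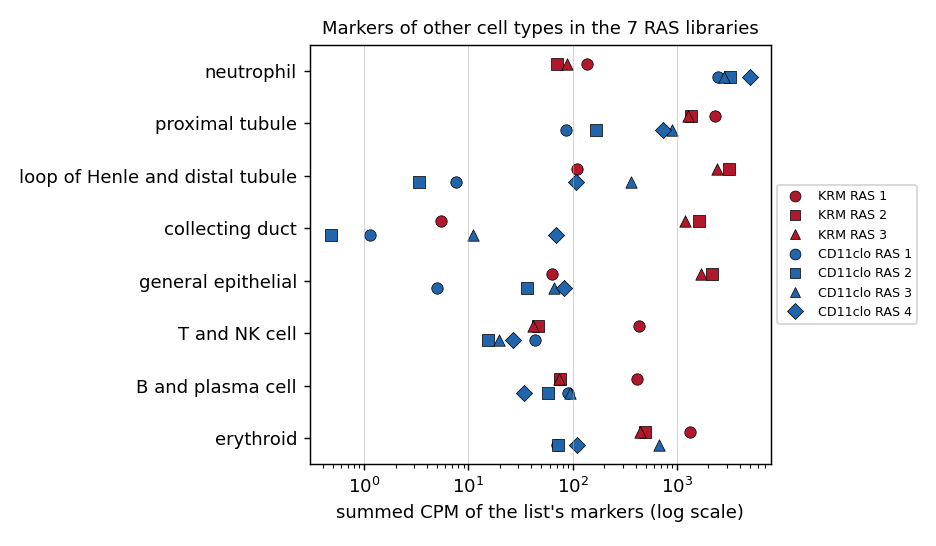
Summed CPM of the markers of 8 other cell types or nephron segments (log scale) in each of the 7 RAS libraries. KRM are red and CD11clo Mϕ blue, with a symbol per replicate. Neutrophil markers are at 71.2 to 138 CPM in KRM and 2480 to 5000 CPM in CD11clo Mϕ, and collecting duct markers at 1610 and 1200 CPM in KRM RAS replicates 2 and 3 but 5.51 CPM in replicate 1.

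Over the 7 libraries, 1208 of the 13179 genes tested differed at an adjusted p under 0.05 (edgeR quasi-likelihood test), 432 of them higher in KRM and 776 lower. That is a background of 3.28% of tested genes called higher and 5.89% called lower, against which the counts for each gene group below should be read. Adjusted p-values in all that follows are from this test with Benjamini-Hochberg adjustment over all genes tested, and values after ± are standard errors. A fold change above 2 was reached by 1023 of the called genes. Without KRM RAS replicate 1, 3239 of 14072 genes were called, 1779 higher (12.6%) and 1460 lower (10.4%). Of the genes called higher over 7 libraries 403 were called higher without it (93.3% of the first set and 22.7% of the second), and of those called lower 744 (95.9% and 51%). No gene was called in opposite directions. With that library left out, the balance of higher and lower calls thus turned from fewer higher to more higher. The same turn was seen when libraries were scaled by total counts, with 990 higher and 513 lower over 7 libraries and 2430 and 860 without KRM RAS replicate 1. When KRM RAS replicate 2 or 3 was left out of the 7, so that replicate 1 was 1 of 2 KRM libraries, no gene was called by edgeR, with 2854 and 2862 genes at an unadjusted p under 0.05. The count was 541, 45, 2111 and 89 without CD11clo RAS replicates 1, 2, 3 and 4. Every call over the 7 libraries was thus lost without KRM RAS replicate 2 or 3, and most were lost without CD11clo RAS replicate 1, 2 or 4, where 481, 45 and 89 of the 1208 remained. Without CD11clo RAS replicate 3, 1132 remained. Among the genes selected for naming, Ighv1-80, Ccl5, Tlr8, Krt18 and Epcam lost their call without it (adjusted p = 0.0577, 0.0611, 0.0626, 0.0515 and 0.0524, edgeR), while C1qa, C1qb, C1qc, Fcgr4, Mmp13 and Tmem119 gained one. DESeq2 called 3216 genes on the 7 libraries, among them 99.7% of the 1208. Groups did not overlap for 14.6% of tested genes in the direction of KRM and for 15.4% in that of CD11clo Mϕ.

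**Figure D3:**
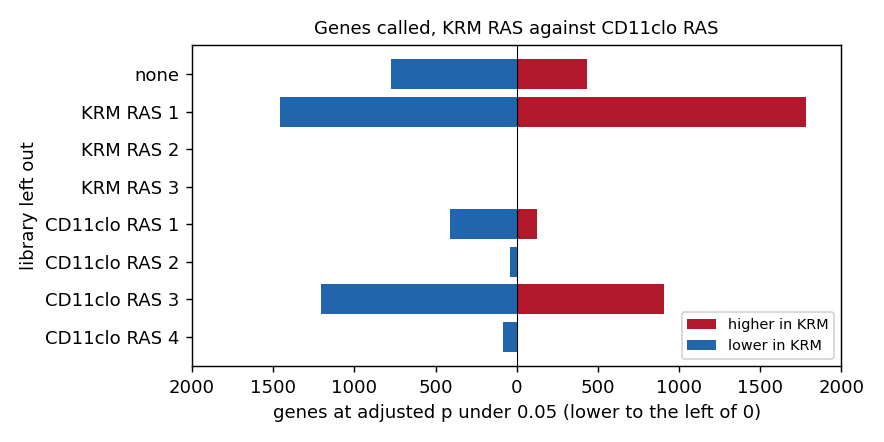
Number of genes at an adjusted p under 0.05 in the comparison of KRM RAS with CD11clo RAS, with no library or 1 library left out. Bars to the right of 0 count genes higher in KRM and bars to the left genes lower in KRM. With all libraries the counts are 432 and 776, without KRM RAS replicate 1 they are 1779 and 1460, and without KRM RAS replicate 2 or 3 both are 0.

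Genes known from neutrophils were among those with the largest differences toward CD11clo Mϕ. Named here are the 10 with the largest log2 fold change among genes called both with and without KRM RAS replicate 1 whose groups did not overlap. S100a8 and S100a9, subunits of the neutrophil and monocyte protein calprotectin, lie next to each other on chromosome 3. S100a9 was 2.01, 0.185 and 0.294 CPM in KRM and 163, 601, 681 and 1109.8 CPM in CD11clo Mϕ, a log2 fold change of -9.58 ± 1.15 (SE, adjusted p = 0.0135), and -11.34 ± 1.21 (SE, adjusted p = 0.00702) without KRM RAS replicate 1. S100a8 was 2.62, 0.461 and 0.294 CPM in KRM and 133, 487, 605 and 841 CPM in CD11clo Mϕ. For S100a8 the log2 fold change was -8.84 ± 1.09 (SE, adjusted p = 0.0135), and -10.39 ± 1.12 (SE, adjusted p = 0.00702) without KRM RAS replicate 1. The highest KRM library for both genes was replicate 1, and it was still far below the lowest CD11clo library. Mmp8, the neutrophil collagenase, was 0.604, 0 and 0 CPM in KRM and 151, 201, 23.7 and 95.9 CPM in CD11clo Mϕ. For Mmp8 the log2 fold change was -9.14 ± 1.24 (SE, adjusted p = 0.0153). With 0 counts in KRM RAS replicates 2 and 3, it was at least 722-fold lower in those 2 libraries, counting 3 over the group as the floor. Cxcr2, the receptor for neutrophil-attracting CXC chemokines, was 0.704, 0 and 0 CPM in KRM and 18.3, 97.7, 108 and 208 CPM in CD11clo Mϕ (log2 fold change -8.81 ± 1.31 (SE, adjusted p = 0.0183)) and at least 635-fold lower in KRM RAS replicates 2 and 3. Cd177, a neutrophil surface protein, was 2.01, 0.369 and 0 CPM in KRM and 384, 283, 53.5 and 256 CPM in CD11clo Mϕ. For Cd177 the log2 fold change was -8.26 ± 1.21 (SE, adjusted p = 0.018), and -10.26 ± 1.33 (SE, adjusted p = 0.00922) without KRM RAS replicate 1. S100a8, S100a9, Mmp8 and Cxcr2 are themselves in the list of neutrophil markers whose sums are given above, and the part of neutrophils in these differences was not tested. All 8 of the tested neutrophil markers were called lower (5.89% of all genes were), with a median log2 fold change of -8.48, against 0.0562 over all genes tested. Without KRM RAS replicate 1 it was 8 of 9, with a median of -10.5, or -9.31 with Cxcr2, Mmp8 and Ngp at their bound, against 0.0293. Of these tested markers 6 of 8, and 7 of 9 without KRM RAS replicate 1, passed the filter on low counts only through the CD11clo libraries and could only be called lower, so the counts and medians describe the list and are no test of it. Mmp9 and Csf3r reached the filter's level in both groups. Ngp and Camp, granule proteins made during neutrophil maturation, had 0 counts in the 3 KRM libraries against 720 and 113 counts over the CD11clo libraries, which makes them at least 187-fold and 29.3-fold lower (128-fold and 20.1-fold without KRM RAS replicate 1).

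Other members of the 10 belong to the acute phase, to tissue-type macrophages or to the interferon response. Saa3, an acute phase serum amyloid made by macrophages, was 0, 0 and 0.0979 CPM in KRM and 51.8, 134, 9.66 and 25.2 CPM in CD11clo Mϕ. With 1 count over the 3 KRM libraries its pooled ratio was 1450-fold lower, with a 95% counting interval of 260 to 57400, and 998-fold (179 to 39400) without KRM RAS replicate 1. Asprv1, an aspartic protease also found in neutrophils, was 0, 0.185 and 0 CPM in KRM and 4.43, 21, 27.9 and 51.2 CPM in CD11clo Mϕ, 336-fold lower over the pooled counts (95% interval 92.7 to 2780, 2 counts in KRM) and 231-fold lower (63.7 to 1910) without KRM RAS replicate 1. These intervals cover counting error only. Chi3l3 (Ym1), a chitinase-like protein of alternatively activated macrophages and neutrophils, was 3.62, 0.185 and 0.783 CPM in KRM and 874, 905, 147 and 498 CPM in CD11clo Mϕ. For Chi3l3 the log2 fold change was -8.63 ± 1.20 (SE, adjusted p = 0.0156), and -10.29 ± 1.23 (SE, adjusted p = 0.00767) without KRM RAS replicate 1. F5, coagulation factor V, was 1.31, 0.369 and 0.391 CPM in KRM and 401, 351, 27.7 and 205 CPM in CD11clo Mϕ. For F5 the log2 fold change was -8.47 ± 1.17 (SE, adjusted p = 0.0156), and -9.31 ± 1.48 (SE, adjusted p = 0.0126) without KRM RAS replicate 1. In 6 of the 10 genes (Saa3, Mmp8, Chi3l3, F5, Cd177 and Slfn4) the lowest CD11clo library was replicate 3. Slfn4, a myeloid gene induced by interferon, was 0.805, 0.277 and 0.783 CPM in KRM and 120.1, 195, 108 and 397 CPM in CD11clo Mϕ, with the smallest standard error of the 10 (log2 fold change -8.35 ± 0.74 (SE, adjusted p = 0.00831), and -8.60 ± 0.95 (SE, adjusted p = 0.00702) without KRM RAS replicate 1). Saa3, Chi3l3 and Slfn4 have close paralogs that may share reads, so their levels are uncertain.

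**Figure D4:**
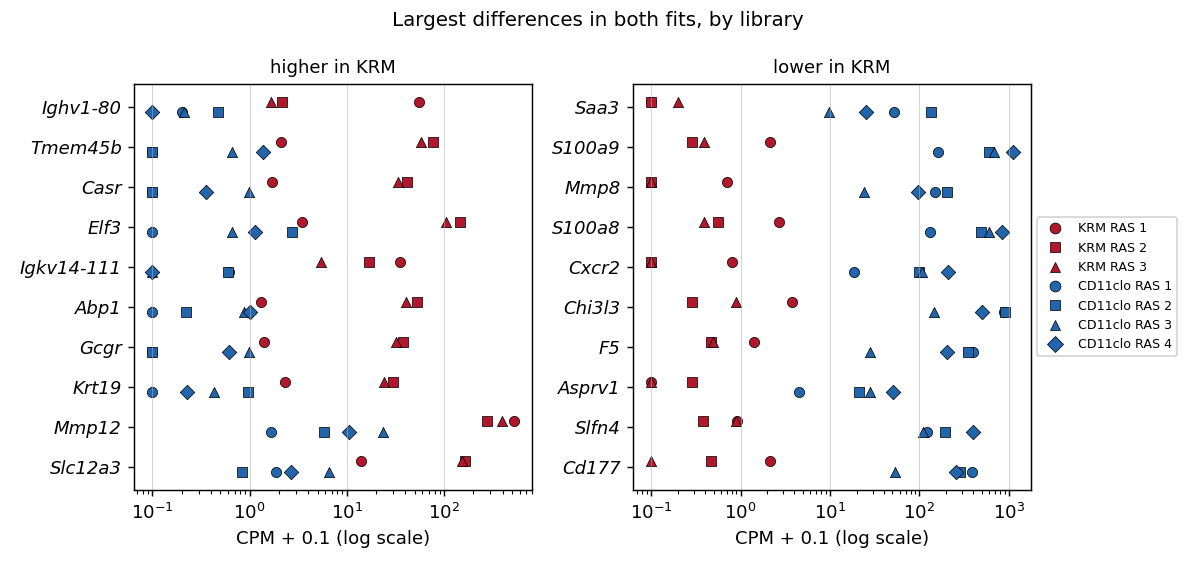
CPM + 0.1 (log scale) in each of the 7 RAS libraries for the 10 genes with the largest log2 fold change in each direction among genes called with and without KRM RAS replicate 1. KRM are red and CD11clo Mϕ blue, with a symbol per replicate. For 7 of the genes higher in KRM (Tmem45b, Casr, Elf3, Abp1, Gcgr, Krt19 and Slc12a3) KRM RAS replicate 1 lies far below replicates 2 and 3, while Mmp12 is at 275 to 526 CPM in all 3.

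Classical monocyte genes were lower in KRM almost throughout. Of 14 tested, 13 were called lower and none higher, both with and without KRM RAS replicate 1, with a median log2 fold change of -4.68 and -5.22. All but 1 of the 14 reached the level of the low-count filter in both groups. Hp, which encodes the hemoglobin-binding haptoglobin, was 6.24, 1.48 and 2.06 CPM in KRM and 550.3, 649, 193 and 532 CPM in CD11clo Mϕ. For Hp the log2 fold change was -7.21 ± 0.76 (SE, adjusted p = 0.0107), and -8.11 ± 0.71 (SE, adjusted p = 0.00647) without KRM RAS replicate 1. Ifitm6 was 4.13, 1.11 and 1.47 CPM in KRM and 138, 157, 42.9 and 106 CPM in CD11clo Mϕ. For Ifitm6 the log2 fold change was -5.64 ± 0.68 (SE, adjusted p = 0.0135), and -6.45 ± 0.70 (SE, adjusted p = 0.00702) without KRM RAS replicate 1. Clec4e, the lectin Mincle that senses mycobacterial and dead-cell glycolipids, was 5.73, 18.1 and 17.3 CPM in KRM and 271, 959, 593 and 1504 CPM in CD11clo Mϕ. For Clec4e the log2 fold change was -5.92 ± 0.79 (SE, adjusted p = 0.0148), and -5.58 ± 0.82 (SE, adjusted p = 0.0108) without KRM RAS replicate 1. In each the groups were separated by a wide gap. Ccr2, the receptor that draws monocytes out of the marrow, differed less, at 859, 533 and 718 CPM in KRM and 1657, 1325, 1192 and 1524 CPM in CD11clo Mϕ. For Ccr2 the log2 fold change was -1.02 ± 0.25 (SE, adjusted p = 0.0463), and -1.21 ± 0.26 (SE, adjusted p = 0.0235) without KRM RAS replicate 1. It was still abundant in KRM. Of 9 non-classical monocyte genes 4 were lower and none higher (7 without KRM RAS replicate 1), with a median of -1.91 and -3.28. Ace, angiotensin-converting enzyme, was 31, 4.15 and 4.7 CPM in KRM and 267, 224, 78.7 and 321 CPM in CD11clo Mϕ. For Ace the log2 fold change was -4.07 ± 0.90 (SE, adjusted p = 0.0393), and -5.68 ± 0.68 (SE, adjusted p = 0.00767) without KRM RAS replicate 1. Emr4, an adhesion receptor of blood monocytes, was 63.4, 23.5 and 27.9 CPM in KRM and 521, 362, 166 and 417 CPM in CD11clo Mϕ. For Emr4 the log2 fold change was -3.26 ± 0.53 (SE, adjusted p = 0.0232), and -3.86 ± 0.51 (SE, adjusted p = 0.00953) without KRM RAS replicate 1. KRM RAS replicate 1 was above the other KRM in both, and CD11clo RAS replicate 3 below the other CD11clo Mϕ.

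Genes of serous cavity macrophages and of alternative activation followed the same direction. Of 17 serous cavity genes 9 were called lower (11 without KRM RAS replicate 1) and none higher, with a median of -5.59 (-5.43). Of the 17, 10 (7 without KRM RAS replicate 1) passed the filter on low counts only through CD11clo Mϕ, among them 6 of the 9 called (7 of 11), which could only be called lower. Alox15, a lipoxygenase of peritoneal macrophages, was 4.63, 0.185 and 0.391 CPM in KRM and 812, 622, 75.1 and 338 CPM in CD11clo Mϕ. For Alox15 the log2 fold change was -8.06 ± 1.42 (SE, adjusted p = 0.0268), and -10.62 ± 1.44 (SE, adjusted p = 0.00953) without KRM RAS replicate 1. Prg4, the lubricating proteoglycan lubricin, was 0.604, 0.461 and 0.391 CPM in KRM and 76.5, 139.6, 10.3 and 50.8 CPM in CD11clo Mϕ. For Prg4 the log2 fold change was -7.12 ± 1.01 (SE, adjusted p = 0.0159), and -7.32 ± 1.32 (SE, adjusted p = 0.0156) without KRM RAS replicate 1. CD11clo RAS replicate 3 was the lowest of its group for both, yet above every KRM library. Of 14 alternative activation genes 9 were lower (8 without KRM RAS replicate 1) and none higher, with a median of -3.5 (-3.49). Of the called genes 2 (2) passed the filter on low counts only through CD11clo Mϕ. Retnla (Fizz1) was 20.5, 43.8 and 42 CPM in KRM and 506, 951, 2098 and 2957 CPM in CD11clo Mϕ. For Retnla the log2 fold change was -5.52 ± 0.76 (SE, adjusted p = 0.0156), and -5.28 ± 0.88 (SE, adjusted p = 0.0134) without KRM RAS replicate 1. Its reads may be shared with Retnlg. Lyve1, a hyaluronan receptor, was 1.41, 1.38 and 2.84 CPM in KRM and 55, 226, 55.3 and 60.8 CPM in CD11clo Mϕ. For Lyve1 the log2 fold change was -5.72 ± 0.76 (SE, adjusted p = 0.0147), and -5.58 ± 0.94 (SE, adjusted p = 0.0136) without KRM RAS replicate 1. Timd4, a phosphatidylserine receptor of resident macrophages of other tissues, was 0.906, 1.38 and 0.783 CPM in KRM and 12.6, 79.4, 12.7 and 14.1 CPM in CD11clo Mϕ. For Timd4 the log2 fold change was -4.83 ± 0.92 (SE, adjusted p = 0.0309), and -4.78 ± 1.16 (SE, adjusted p = 0.0302) without KRM RAS replicate 1. Both were highest in CD11clo RAS replicate 2. F13a1, the A chain of coagulation factor XIII, was 33, 33.6 and 40.6 CPM in KRM and 1819, 2034, 761 and 1596 CPM in CD11clo Mϕ with a small spread (log2 fold change -5.44 ± 0.43 (SE, adjusted p = 0.00831), and -5.41 ± 0.53 (SE, adjusted p = 0.00647) without KRM RAS replicate 1).

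Receptors through which myeloid cells sense and reach inflamed tissue were lower in KRM where they were called. Of 15 C-type lectin receptors and Trem genes 7 were called lower (6 without KRM RAS replicate 1), of 11 chemokine receptors 4 (4), of 15 Toll-like receptors and adaptors 4 (6), and of 15 other cytokines and receptors 5 (7). No member of these 4 lists was called higher. Trem3, Ccr3, Cxcr2 and Tlr5, each among the called genes with and without KRM RAS replicate 1, passed the filter on low counts only through CD11clo Mϕ and could only be called lower. Trem1, which amplifies neutrophil and monocyte inflammation, was 4.43, 4.34 and 3.72 CPM in KRM and 129, 652, 382 and 958 CPM in CD11clo Mϕ. For Trem1 the log2 fold change was -6.99 ± 0.79 (SE, adjusted p = 0.013), and -7.07 ± 1.01 (SE, adjusted p = 0.0101) without KRM RAS replicate 1. Ccr1, a receptor for several CC chemokines, was 25.1, 17.7 and 24.7 CPM in KRM and 152, 418, 345 and 674 CPM in CD11clo Mϕ. For Ccr1 the log2 fold change was -4.14 ± 0.53 (SE, adjusted p = 0.0135), and -4.26 ± 0.67 (SE, adjusted p = 0.0122) without KRM RAS replicate 1. In both genes CD11clo RAS replicate 1 was the lowest of its group and still several times above KRM. Myd88, the adaptor of most Toll-like receptors, was 115, 89.5 and 85 CPM in KRM and 316, 301, 168 and 273 CPM in CD11clo Mϕ. For Myd88 the log2 fold change was -1.46 ± 0.26 (SE, adjusted p = 0.0271), and -1.63 ± 0.29 (SE, adjusted p = 0.0153) without KRM RAS replicate 1. Csf3r, the G-CSF receptor, was 117, 68.3 and 86.3 CPM in KRM and 323, 657, 560.3 and 1264 CPM in CD11clo Mϕ. For Csf3r the log2 fold change was -2.95 ± 0.50 (SE, adjusted p = 0.0252), and -3.21 ± 0.60 (SE, adjusted p = 0.0167) without KRM RAS replicate 1. Osm, the cytokine oncostatin M, was 56.2, 98.3 and 138 CPM in KRM and 495, 694, 400.4 and 701 CPM in CD11clo Mϕ. For Osm the log2 fold change was -2.55 ± 0.38 (SE, adjusted p = 0.018), and -2.30 ± 0.34 (SE, adjusted p = 0.0107) without KRM RAS replicate 1. The groups did not overlap in any of these 3 genes.

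The CC chemokines split. Of 13 tested, 3 were lower and 1 higher over the 7 libraries, and 3 and 0 without KRM RAS replicate 1. Ccl6 was 358, 249.6 and 281 CPM in KRM and 4098, 4156, 1556 and 2665 CPM in CD11clo Mϕ. For Ccl6 the log2 fold change was -3.40 ± 0.43 (SE, adjusted p = 0.0135), and -3.58 ± 0.52 (SE, adjusted p = 0.0102) without KRM RAS replicate 1. Ccl9 was 171, 189 and 199 CPM in KRM and 902, 1160.3, 624 and 870.1 CPM in CD11clo Mϕ. For Ccl9 the log2 fold change was -2.25 ± 0.25 (SE, adjusted p = 0.013), and -2.22 ± 0.31 (SE, adjusted p = 0.00955) without KRM RAS replicate 1. Ccl24 (eotaxin-2), which attracts eosinophils, was 1.11, 1.29 and 2.15 CPM in KRM and 18.5, 64.4, 43 and 56.4 CPM in CD11clo Mϕ. For Ccl24 the log2 fold change was -4.90 ± 0.54 (SE, adjusted p = 0.0126), and -4.75 ± 0.65 (SE, adjusted p = 0.00955) without KRM RAS replicate 1. Ccl5, made by T cells, NK cells and macrophages, was higher at 111, 27.1 and 23.6 CPM in KRM and 8.97, 3.96, 9.99 and 13.4 CPM in CD11clo Mϕ. Its call over the 7 libraries, 2.57 ± 0.63 (SE, adjusted p = 0.0477), was lost without KRM RAS replicate 1, at 1.45 (adjusted p = 0.0522), the library with the most T and NK cell markers. Ccl2, the main ligand of CCR2, was 56.7, 242 and 284 CPM in KRM and 178, 405, 708 and 361 CPM in CD11clo Mϕ, with overlapping groups (log2 fold change -1.09 (adjusted p = 0.258) and -0.68 (adjusted p = 0.347) without KRM RAS replicate 1).

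Calcium-binding and membrane scaffold genes were lower where they were called over 7 libraries. Of 17 S100, annexin and related genes 8 were lower and none higher, and 9 and 2 without KRM RAS replicate 1, with medians of -1.81 and -1.77. S100a4 was 18.1, 13 and 8.42 CPM in KRM and 309.8, 351, 102 and 184 CPM in CD11clo Mϕ. For S100a4 the log2 fold change was -4.17 ± 0.53 (SE, adjusted p = 0.0135), and -4.49 ± 0.62 (SE, adjusted p = 0.00956) without KRM RAS replicate 1. Ahnak, a large scaffold protein, was 118, 154 and 146 CPM in KRM and 1361, 2017, 543 and 1294 CPM in CD11clo Mϕ. For Ahnak the log2 fold change was -3.22 ± 0.46 (SE, adjusted p = 0.0158), and -3.15 ± 0.55 (SE, adjusted p = 0.0148) without KRM RAS replicate 1. Of 16 integrins tested 5 were lower and 2 higher (6 and 2 without KRM RAS replicate 1). Besides Itgax, the higher one was Itgav, chosen after its values were seen, the αv chain that binds vitronectin, at 149, 188 and 203 CPM in KRM and 105, 66.3, 92.5 and 99.5 CPM in CD11clo Mϕ. For Itgav the log2 fold change was 0.99 ± 0.20 (SE, adjusted p = 0.0352), and 1.08 ± 0.21 (SE, adjusted p = 0.018) without KRM RAS replicate 1. Itgb7 was 114, 40.9 and 39.9 CPM in KRM and 535, 524, 137 and 440.2 CPM in CD11clo Mϕ. For Itgb7 the log2 fold change was -2.66 ± 0.60 (SE, adjusted p = 0.041), and -3.37 ± 0.60 (SE, adjusted p = 0.0152) without KRM RAS replicate 1. KRM RAS replicate 1 was highest among KRM and CD11clo RAS replicate 3 lowest among CD11clo Mϕ for Itgb7.

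Matrix metalloproteinases were called in both directions. Mmp12 was the only one of 12 tested matrix metalloproteinases and inhibitors called higher, and 4 were called lower, with the same counts without KRM RAS replicate 1. Of the 4, Mmp8 and Mmp19 passed the filter on low counts only through CD11clo Mϕ and could only be called lower. Mmp12, macrophage elastase, was 526, 275 and 396 CPM in KRM and 1.55, 5.69, 23.4 and 10.4 CPM in CD11clo Mϕ. For Mmp12 the log2 fold change was 5.28 ± 0.81 (SE, adjusted p = 0.0198), and 5.00 ± 0.84 (SE, adjusted p = 0.0136) without KRM RAS replicate 1. The lowest KRM library was far above the highest CD11clo library. Mmp9, gelatinase B, was 12.5, 6.18 and 7.73 CPM in KRM and 358, 492, 626 and 1349.6 CPM in CD11clo Mϕ. For Mmp9 the log2 fold change was -6.33 ± 0.63 (SE, adjusted p = 0.0089), and -6.69 ± 0.76 (SE, adjusted p = 0.00702) without KRM RAS replicate 1. Adam8 was 16.2, 16.5 and 11.6 CPM in KRM and 416, 526, 123 and 401 CPM in CD11clo Mϕ. For Adam8 the log2 fold change was -4.63 ± 0.54 (SE, adjusted p = 0.0135), and -4.73 ± 0.68 (SE, adjusted p = 0.0101) without KRM RAS replicate 1. Mmp13, a collagenase, was 415, 303 and 396 CPM in KRM and 8.77, 4.7, 195 and 29 CPM in CD11clo Mϕ. Its log2 fold change of 2.64 (adjusted p = 0.155), or 2.52 (adjusted p = 0.187) without KRM RAS replicate 1, did not pass the test, and without CD11clo RAS replicate 3 it was 4.76 (adjusted p = 0.0127).

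Promoter sequence is shown for 6 of the 20 genes with the largest differences, 2 higher in KRM and 4 lower. Their windows reach at most 24 bases into the annotated gene. The 6 are a selection, since windows of Casr, Asprv1, Cd177, Chi3l3, F5 and Slfn4 reach no further and are not shown. Of those, Casr, Asprv1, Chi3l3 and F5 hold none of the letters searched, so the selection leans toward windows with a match. Each line gives the 250 bases before the first start that RefSeq lists for the gene (GRCm38.p6), 5′ to 3′ on the gene's strand. Capitals mark matches, on either strand, to the letters TTNNGCAA (a core of C/EBP sites) or GAGGAA (a core of PU.1 and other ETS sites). The AP-1 letters TGANTCA, searched as well, had no match in these 6, and the motifs share no base in them.
Mmp12, chr9:7344147-7344396, plus strand: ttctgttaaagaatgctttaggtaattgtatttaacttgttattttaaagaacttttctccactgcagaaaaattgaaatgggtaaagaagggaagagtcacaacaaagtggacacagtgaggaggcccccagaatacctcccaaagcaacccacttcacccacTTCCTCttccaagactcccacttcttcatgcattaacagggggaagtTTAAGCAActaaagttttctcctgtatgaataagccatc
Slc12a3, chr8:94328958-94329207, plus strand: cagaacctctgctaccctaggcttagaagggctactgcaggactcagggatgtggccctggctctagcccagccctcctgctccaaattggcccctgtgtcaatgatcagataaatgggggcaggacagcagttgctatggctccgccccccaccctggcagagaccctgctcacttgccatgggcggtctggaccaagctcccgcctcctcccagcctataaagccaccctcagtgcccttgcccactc
S100a9, chr3:90695722-90695971, minus strand: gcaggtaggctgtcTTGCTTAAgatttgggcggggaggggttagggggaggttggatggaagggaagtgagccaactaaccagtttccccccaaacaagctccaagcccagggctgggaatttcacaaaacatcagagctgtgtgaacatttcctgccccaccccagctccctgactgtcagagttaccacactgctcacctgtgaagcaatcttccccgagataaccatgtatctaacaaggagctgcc
Mmp8, chr9:7558179-7558428, plus strand: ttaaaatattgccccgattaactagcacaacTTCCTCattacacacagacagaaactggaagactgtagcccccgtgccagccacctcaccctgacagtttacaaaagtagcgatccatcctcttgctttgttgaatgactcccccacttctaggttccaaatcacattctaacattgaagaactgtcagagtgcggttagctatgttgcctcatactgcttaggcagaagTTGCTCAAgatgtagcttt
Cxcr2, chr1:74153744-74153993, plus strand: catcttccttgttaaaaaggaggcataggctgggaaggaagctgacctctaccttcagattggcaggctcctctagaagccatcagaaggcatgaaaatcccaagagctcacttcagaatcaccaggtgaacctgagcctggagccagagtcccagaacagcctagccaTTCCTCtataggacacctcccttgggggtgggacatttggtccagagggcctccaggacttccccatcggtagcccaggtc
Saa3, chr7:46715677-46715926, minus strand: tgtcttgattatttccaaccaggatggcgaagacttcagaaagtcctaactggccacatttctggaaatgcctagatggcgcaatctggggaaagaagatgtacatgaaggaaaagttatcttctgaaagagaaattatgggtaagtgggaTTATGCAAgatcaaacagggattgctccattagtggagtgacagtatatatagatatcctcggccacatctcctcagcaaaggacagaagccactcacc

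TTNNGCAA was present in 3 of the 10 windows of the genes lower in KRM (Mmp8, S100a9 and Saa3) and in 2 of the 6 windows found for genes higher in KRM (Abp1 and Mmp12). Of all 32851 promoter windows of this length in the table, 9.56% held it. GAGGAA was present in 4 of 10 (Cd177, Cxcr2, Mmp8 and S100a8) and in 1 of 6 (Mmp12), against 23.3% of all windows, and TGANTCA in 1 of 10 (Slfn4) and 0 of 6, against 6.75%. A match describes the letters and is not evidence of binding. Among the transcription factors themselves, Cebpb, which drives inflammatory myeloid genes, was 212, 370.1 and 403 CPM in KRM and 1922, 1983, 1233 and 2319 CPM in CD11clo Mϕ. For Cebpb the log2 fold change was -2.51 ± 0.34 (SE, adjusted p = 0.0155), and -2.30 ± 0.33 (SE, adjusted p = 0.0103) without KRM RAS replicate 1. It was 1 of 3 of the 31 factors called lower over 7 libraries, with none higher. Ahr, the aryl hydrocarbon receptor, was 31.4, 34.1 and 41.1 CPM in KRM and 172, 173, 101 and 143 CPM in CD11clo Mϕ. For Ahr the log2 fold change was -2.05 ± 0.24 (SE, adjusted p = 0.0135), and -1.99 ± 0.28 (SE, adjusted p = 0.00966) without KRM RAS replicate 1. Irf7, which amplifies type I interferon, was 177, 92.2 and 116 CPM in KRM and 430.2, 318, 203 and 331 CPM in CD11clo Mϕ. For Irf7 the log2 fold change was -1.32 ± 0.32 (SE, adjusted p = 0.0476), and -1.65 ± 0.32 (SE, adjusted p = 0.0188) without KRM RAS replicate 1. With KRM RAS replicate 1 left out, 8 were lower and 3 higher. Sfpi1, which encodes PU.1, was among the 8, at 349, 175 and 194 CPM in KRM and 641, 612, 397 and 552 CPM in CD11clo Mϕ (log2 fold change -1.20 (adjusted p = 0.0512) over 7 libraries and -1.61 (adjusted p = 0.013) without). The 3 higher were Sall1, Cebpd and Id3, and these 4 were chosen after their values were seen. Sall1, a factor of microglia and of the developing nephron, was 1.31, 9.13 and 7.14 CPM in KRM and 0, 1.24, 0.444 and 0.128 CPM in CD11clo Mϕ (log2 fold change 4.12 (adjusted p = 0.0346) without KRM RAS replicate 1). It was high in the 2 libraries rich in epithelial markers, whose part was not tested.

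Epithelial genes were among those highest over CD11clo Mϕ, and in 7 of the 10 genes with the largest positive log2 fold change KRM RAS replicates 2 and 3 were far above replicate 1. Elf3, an epithelial transcription factor, was 3.32, 145 and 105 CPM in KRM and 0, 2.6, 0.555 and 1.03 CPM in CD11clo Mϕ. For Elf3 the log2 fold change was 6.36 ± 1.37 (SE, adjusted p = 0.0379), and 6.91 ± 0.81 (SE, adjusted p = 0.00745) without KRM RAS replicate 1. Krt19, a keratin of simple epithelia, was 2.21, 29.7 and 24 CPM in KRM and 0, 0.866, 0.333 and 0.128 CPM in CD11clo Mϕ. For Krt19 the log2 fold change was 5.78 ± 1.17 (SE, adjusted p = 0.0346), and 6.29 ± 0.83 (SE, adjusted p = 0.00953) without KRM RAS replicate 1. Slc12a3, the thiazide-sensitive cotransporter of the distal convoluted tubule, was 13.9, 165 and 155 CPM in KRM and 1.75, 0.742, 6.44 and 2.57 CPM in CD11clo Mϕ. For Slc12a3 the log2 fold change was 5.26 ± 0.97 (SE, adjusted p = 0.0298), and 5.75 ± 0.64 (SE, adjusted p = 0.00702) without KRM RAS replicate 1. In each, KRM RAS replicate 1 was above the CD11clo Mϕ but far below the other KRM. The same held for Tmem45b (2.01, 77.4 and 57.2 CPM in KRM), Casr, the calcium-sensing receptor of the thick ascending limb (1.61, 41.8 and 33.3 CPM), Abp1, the diamine oxidase (1.21, 52 and 40.6 CPM), and Gcgr, the glucagon receptor (1.31, 38.1 and 32.3 CPM), none of which was above 1.28 CPM in a CD11clo library. Over 7 libraries 2 of 6 general epithelial markers, 1 of 5 loop and distal tubule markers and 0 of 6 collecting duct markers were called higher. After leaving out KRM RAS replicate 1 these were 6 of 6, 2 of 5 and 6 of 7 (12.6% of all genes). Of the 6 collecting duct markers then called 4 passed the filter on low counts only through KRM, as did Cldn16 of the 2 loop and distal tubule markers and, over 7 libraries, Epcam of the 2 general epithelial markers, so these could only be called higher. Kap and Slc27a2, proximal tubule genes, were high in all 3 KRM libraries. Kap was 382, 209.5 and 157 CPM in KRM and 12, 39.1, 40.4 and 10.9 CPM in CD11clo Mϕ. For Kap the log2 fold change was 3.28 ± 0.58 (SE, adjusted p = 0.0268), and 2.81 ± 0.57 (SE, adjusted p = 0.02) without KRM RAS replicate 1. Slc27a2, a fatty acid transporter, was 237, 87.6 and 76.8 CPM in KRM and 8.56, 19.2, 27.2 and 20.2 CPM in CD11clo Mϕ. For Slc27a2 the log2 fold change was 2.83 ± 0.51 (SE, adjusted p = 0.0276), and 2.10 ± 0.39 (SE, adjusted p = 0.0167) without KRM RAS replicate 1.

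A pair of immunoglobulin variable segments and a pair of NK cell genes were higher in KRM, each highest in KRM RAS replicate 1 and called with and without it. No list of immunoglobulin genes was tested. Of 9 T and NK cell markers 2 were called higher in both fits, the NK cell genes Ncr1 and Klrb1c, and of 6 B and plasma cell markers none was called in either. Of the 9, 4 (Ncr1, Klrb1c, Gzma and Gzmb) passed the filter on low counts only through KRM in both fits. These could only come out higher, so the median of the list is no test of it. The median of the 9 was 2.95 over 7 libraries and 0.672 without KRM RAS replicate 1, and that of the 6 was 0.44 and -0.364. No erythroid, endothelial or podocyte marker was called in either fit, while 3 of 8 fibroblast and pericyte markers (Pdgfrb, Acta2 and Rgs5, named after their values were seen) were higher without KRM RAS replicate 1 and none over 7 libraries. Ighv1-80 was 55.1, 2.03 and 1.57 CPM in KRM and 0.103, 0.371, 0.111 and 0 CPM in CD11clo Mϕ. For Ighv1-80 the log2 fold change was 6.95 ± 1.59 (SE, adjusted p = 0.0414), and 3.48 ± 0.95 (SE, adjusted p = 0.0406) without KRM RAS replicate 1. Igkv14-111 was 35, 16.9 and 5.28 CPM in KRM and 0.516, 0.495, 0 and 0 CPM in CD11clo Mϕ. For Igkv14-111 the log2 fold change was 6.14 ± 1.10 (SE, adjusted p = 0.0276), and 5.33 ± 1.10 (SE, adjusted p = 0.0207) without KRM RAS replicate 1. Variable gene segments are near-identical, so how reads were split among them is uncertain. Ncr1, the NK cell receptor NKp46, was 26.4, 5.07 and 4.4 CPM in KRM and 0.619, 0.247, 0.555 and 0.77 CPM in CD11clo Mϕ. For Ncr1 the log2 fold change was 4.41 ± 0.79 (SE, adjusted p = 0.0276), and 3.05 ± 0.59 (SE, adjusted p = 0.0177) without KRM RAS replicate 1. Klrb1c, which encodes the NK1.1 antigen of the excluded gate, was 34.5, 4.52 and 4.99 CPM in KRM and 1.34, 0.371, 0.555 and 0.77 CPM in CD11clo Mϕ. For Klrb1c the log2 fold change was 4.24 ± 0.88 (SE, adjusted p = 0.0355), and 2.59 ± 0.62 (SE, adjusted p = 0.0291) without KRM RAS replicate 1. All 3 KRM libraries were above CD11clo Mϕ for both NK cell genes, with replicate 1 several times above the others.

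Some cell cycle genes were higher in KRM. Of 21 tested, 5 were called higher (3.28% of all genes were) and none lower, and 4 without KRM RAS replicate 1 (12.6%). Of the 21, 4 (2 without KRM RAS replicate 1) passed the filter on low counts only through KRM, among them 2 (2) of the called genes. These could only come out higher, so the counts and medians here describe the list and are no test of it. The fold change was positive in 20 of 21, against 53% of all genes (20 and 51.3% without KRM RAS replicate 1), with a median of 1.24 (1.28), and the groups did not overlap in 16 (14.6% of all genes), and in 16 without KRM RAS replicate 1 (32.8%). Bub1, a mitotic checkpoint kinase, was 3.22, 4.24 and 3.33 CPM in KRM and 0, 0, 0.444 and 0.128 CPM in CD11clo Mϕ. For Bub1 the log2 fold change was 4.52 ± 1.01 (SE, adjusted p = 0.0402), and 4.56 ± 1.10 (SE, adjusted p = 0.0296) without KRM RAS replicate 1. Ccna2, cyclin A2, was 12, 7.38 and 11.1 CPM in KRM and 2.99, 1.61, 1.89 and 2.95 CPM in CD11clo Mϕ. For Ccna2 the log2 fold change was 2.10 ± 0.39 (SE, adjusted p = 0.0294), and 1.93 ± 0.45 (SE, adjusted p = 0.0269) without KRM RAS replicate 1. Ube2c, a ubiquitin-conjugating enzyme that works with the anaphase-promoting complex, was 6.54, 4.15 and 5.09 CPM in KRM and 0.516, 1.11, 0.222 and 0.77 CPM in CD11clo Mϕ. For Ube2c the log2 fold change was 2.99 ± 0.59 (SE, adjusted p = 0.0329), and 2.78 ± 0.67 (SE, adjusted p = 0.03) without KRM RAS replicate 1. Here KRM RAS replicate 1 did not stand apart, and all 3 KRM libraries were above the 4 CD11clo libraries. Mki67, the usual marker of cycling cells, was 17.8, 16.1 and 16.5 CPM in KRM and 9.07, 19.7, 11.7 and 16.8 CPM in CD11clo Mϕ, with overlapping groups (log2 fold change 0.23 (adjusted p = 0.614) and 0.16 (adjusted p = 0.762) without KRM RAS replicate 1). Summed over the 21 genes, levels were 412 to 459 CPM in KRM and 219 to 366 CPM in CD11clo Mϕ. Without CD11clo RAS replicate 3, 12 of the 21 were called higher, in a fit that called 907 of all 13023 genes higher.

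Genes that define tissue macrophages mostly did not pass the test. None of the 11 genes of the core macrophage signature was called over 7 libraries, with a median of 0.0552, and 2 were lower without KRM RAS replicate 1. The study took this signature from published work on adult mouse macrophages. None of 14 microglia-type genes was called over 7 libraries, with a median of 0.793. The median was 0.253 without KRM RAS replicate 1, with Sall1 higher and Selplg, a ligand of P-selectin, lower. Csf1r, the receptor for macrophage colony-stimulating factor, was 3149, 1637 and 2171 CPM in KRM and 2518, 2468, 4075 and 3259 CPM in CD11clo Mϕ (log2 fold change -0.41 (adjusted p = 0.407) and -0.72 (adjusted p = 0.152) without KRM RAS replicate 1). C1qa, a chain of complement C1q, was 2034, 1400.5 and 1546 CPM in KRM and 306, 447, 1924 and 475 CPM in CD11clo Mϕ. Replicate 3 of CD11clo Mϕ was inside the range of KRM, and the other 3 CD11clo libraries were far below it. Over 7 libraries the log2 fold change of C1qa was 1.07 (adjusted p = 0.268), without KRM RAS replicate 1 0.87 (adjusted p = 0.4), and without CD11clo RAS replicate 3 2.06 (adjusted p = 0.0079). C1qc followed C1qa, at 3006, 1731 and 1988 CPM in KRM and 507, 699, 2576 and 723 CPM in CD11clo Mϕ (log2 fold change 0.99 (adjusted p = 0.269), 0.69 (adjusted p = 0.462) without KRM RAS replicate 1 and 1.84 (adjusted p = 0.0136) without CD11clo RAS replicate 3). Tmem119, best known from microglia, was 225, 86 and 103 CPM in KRM and 13.5, 9.65, 93.7 and 30.7 CPM in CD11clo Mϕ (log2 fold change 1.90 (adjusted p = 0.138), 1.33 (adjusted p = 0.269) without KRM RAS replicate 1 and 2.98 (adjusted p = 0.0235) without CD11clo RAS replicate 3). Fcgr4, the Fc receptor FcγRIV, was 256, 152 and 185 CPM in KRM and 27.4, 38.6, 203 and 80.1 CPM in CD11clo Mϕ (log2 fold change 1.18 (adjusted p = 0.243), 0.91 (adjusted p = 0.388) without KRM RAS replicate 1 and 2.06 (adjusted p = 0.0287) without CD11clo RAS replicate 3). Cx3cr1, the fractalkine receptor, was 989.9, 434 and 545 CPM in KRM and 481, 319, 889.7 and 495 CPM in CD11clo Mϕ, with overlapping groups (log2 fold change 0.26 (adjusted p = 0.68) and -0.19 (adjusted p = 0.756)). Of 17 complement components and receptors 4 were lower (6 without KRM RAS replicate 1) and none higher. Cfp, properdin, which stabilises the alternative pathway, was 52.9, 87.2 and 89.9 CPM in KRM and 248, 462, 335 and 479.9 CPM in CD11clo Mϕ. For Cfp the log2 fold change was -2.31 ± 0.32 (SE, adjusted p = 0.0156), and -2.14 ± 0.33 (SE, adjusted p = 0.0119) without KRM RAS replicate 1. Among 6 Fc receptors, 13 cathepsins and 15 genes of MHC class II and costimulation, 0, 0 and 1 were called over 7 libraries, and 1, 1 and 2 were lower without KRM RAS replicate 1 (Fcer1g, Ctse, and Cd40 with Cd80, named after their values were seen). The 1 over 7 libraries was Cd80, a ligand of CD28, at 5.33, 10.2 and 13.8 CPM in KRM and 19, 88.3, 52.4 and 115 CPM in CD11clo Mϕ (log2 fold change -2.81 ± 0.64 (SE, adjusted p = 0.0418), and -2.54 ± 0.72 (SE, adjusted p = 0.0447) without KRM RAS replicate 1).

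Some interferon-stimulated genes were lower in KRM. Of 21 tested, 4 were lower and none higher over 7 libraries, and 9 and 0 without KRM RAS replicate 1, with medians of -0.571 and -0.876. Isg15, a ubiquitin-like modifier, was 24, 22.8 and 24.3 CPM in KRM and 62, 61.6, 50.8 and 70.2 CPM in CD11clo Mϕ. For Isg15 the log2 fold change was -1.37 ± 0.16 (SE, adjusted p = 0.0135), and -1.40 ± 0.19 (SE, adjusted p = 0.00953) without KRM RAS replicate 1. Oas3, a sensor of double-stranded RNA, was 33, 16.8 and 21.4 CPM in KRM and 110.1, 81.1, 50.8 and 101 CPM in CD11clo Mϕ. For Oas3 the log2 fold change was -1.85 ± 0.34 (SE, adjusted p = 0.0298), and -2.19 ± 0.35 (SE, adjusted p = 0.0127) without KRM RAS replicate 1. Mx1, an antiviral GTPase, was 50.6, 17.3 and 25.9 CPM in KRM and 51.1, 53, 48.8 and 54 CPM in CD11clo Mϕ. Only KRM RAS replicates 2 and 3 were below the CD11clo Mϕ, and the log2 fold change was -0.73 (adjusted p = 0.179) over 7 libraries and -1.29 (adjusted p = 0.0134) without replicate 1. Irf5, a factor of inflammatory macrophages, followed the same pattern at 439, 201 and 237 CPM in KRM and 637, 573, 399.6 and 536 CPM in CD11clo Mϕ (log2 fold change -0.88 (adjusted p = 0.106) and -1.32 (adjusted p = 0.0175)).

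Most cytokines and angiogenic factors did not pass the test over 7 libraries. Il1b was 1159.7, 2929 and 3445 CPM in KRM and 1514, 4163, 6518 and 7501 CPM in CD11clo Mϕ (log2 fold change -0.97 (adjusted p = 0.294) and -0.66 (adjusted p = 0.46) without KRM RAS replicate 1). Il6 was 1.21, 15.6 and 19 CPM in KRM and 16.4, 60.2, 29.2 and 75.1 CPM in CD11clo Mϕ (log2 fold change -1.92 (adjusted p = 0.172) and -1.42 (adjusted p = 0.134) without KRM RAS replicate 1), and Il10 was 0.906, 13 and 15.2 CPM in KRM and 3.71, 14.2, 35.5 and 15.4 CPM in CD11clo Mϕ (log2 fold change -0.83 (adjusted p = 0.572) and -0.32 (adjusted p = 0.774) without KRM RAS replicate 1). In Il6 and Il10, KRM RAS replicate 1 was far below the other KRM, which were near or within the range of CD11clo Mϕ. Vegfa, the main endothelial growth factor, was 11.6, 88.8 and 87.6 CPM in KRM and 58.5, 244, 119 and 333 CPM in CD11clo Mϕ (log2 fold change -1.59 (adjusted p = 0.208) and -1.13 (adjusted p = 0.241) without KRM RAS replicate 1). Of 17 tested angiogenic growth factors and receptors 1 was lower and none higher over 7 libraries, with a median of 0.612 (1.01 without KRM RAS replicate 1). The groups did not overlap in 3 of the 17 with KRM higher and in 2 with KRM lower, and in 9 and 3 without KRM RAS replicate 1, where they did not overlap in 32.8% and 24.1% of all genes. The 1 was Thbs1, thrombospondin 1, an inhibitor of angiogenesis, at 20.3, 182 and 193 CPM in KRM and 689.7, 3762, 1517 and 5470.1 CPM in CD11clo Mϕ. For Thbs1 the log2 fold change was -4.44 ± 1.06 (SE, adjusted p = 0.0448), and -3.97 ± 0.93 (SE, adjusted p = 0.0285) without KRM RAS replicate 1. When KRM RAS replicate 1 was left out, 4 were higher and 2 lower. The 4 were Vegfc, Angpt2, Pdgfa and Hbegf, named after their values were seen. Of the 17, Angpt1, Pgf and Vegfc passed the filter on low counts only through KRM in this fit and could only come out higher. Over 7 libraries Vegfc passed only through KRM and Areg only through CD11clo Mϕ. Angpt2, a ligand of the endothelial TIE2 receptor, was 0, 20.9 and 14.2 CPM in KRM and 0, 1.36, 0.777 and 1.28 CPM in CD11clo Mϕ (log2 fold change 3.77 (adjusted p = 0.14) and 4.33 (adjusted p = 0.0214)), and Hbegf, an epidermal growth factor family ligand, was 1.61, 286 and 225 CPM in KRM and 5.57, 23.1, 25.9 and 22.1 CPM in CD11clo Mϕ (log2 fold change 3.16 (adjusted p = 0.122) and 3.71 (adjusted p = 0.01)). Pdgfa was 14.4, 26.6 and 24.3 CPM in KRM and 3.4, 6.06, 11.9 and 4.75 CPM in CD11clo Mϕ and Vegfc 2.82, 7.01 and 5.87 CPM in KRM and 0.412, 0.618, 0.666 and 2.18 CPM in CD11clo Mϕ (log2 fold change without KRM RAS replicate 1 1.93 (adjusted p = 0.0318) and 2.70 (adjusted p = 0.0374)). In Angpt2 and Hbegf the difference was carried by the 2 KRM libraries in which epithelial markers were high, and the part of those cells was not tested. Spp1, osteopontin, made by macrophages and by injured tubules, was 153, 7941 and 5589.8 CPM in KRM and 23.1, 307, 392 and 492 CPM in CD11clo Mϕ (log2 fold change 3.91 (adjusted p = 0.0874) and 4.45 (adjusted p = 0.0223)). Of 14 TGF-beta ligands, receptors and targets none was called over 7 libraries, and 2 were higher and 2 lower without KRM RAS replicate 1.

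Genes for the uptake of dying cells were lower where they differed over 7 libraries, apart from Itgav. Of 20 tested 8 were lower, against 5.89% of all genes, and 1, Itgav, was higher. Of 21 tested without KRM RAS replicate 1, 9 were lower and 3 higher. Msr1, a scavenger receptor, was 63.5, 51.9 and 72.2 CPM in KRM and 268, 467, 219.9 and 266 CPM in CD11clo Mϕ. For Msr1 the log2 fold change was -2.29 ± 0.31 (SE, adjusted p = 0.0148), and -2.32 ± 0.38 (SE, adjusted p = 0.013) without KRM RAS replicate 1. Among 15 genes of lipid efflux and PPAR gamma 4 were lower, among 12 of iron and heme handling 1, and none in these lists was higher, with the same counts without KRM RAS replicate 1. Cd163, the haptoglobin-hemoglobin receptor, was 7.65, 5.17 and 8.02 CPM in KRM and 17.3, 69.1, 64.6 and 35.2 CPM in CD11clo Mϕ. For Cd163 the log2 fold change was -2.74 ± 0.51 (SE, adjusted p = 0.0301), and -2.85 ± 0.64 (SE, adjusted p = 0.0252) without KRM RAS replicate 1. Apoc2, the activator of lipoprotein lipase, was 8.25, 2.31 and 3.03 CPM in KRM and 55.4, 78.5, 39.6 and 84.9 CPM in CD11clo Mϕ. For Apoc2 the log2 fold change was -3.83 ± 0.54 (SE, adjusted p = 0.0156), and -4.62 ± 0.43 (SE, adjusted p = 0.00647) without KRM RAS replicate 1. Among 14 glycolysis and hypoxia genes 2 were lower and 1 higher over 7 libraries, and 1 was lower (Hk2) and 3 were higher (Pdk1, Bnip3 and Adm) without KRM RAS replicate 1. Among 10 CXC chemokines 1 was lower in both fits. Of 12 genes of the interleukin-1 family and inflammasome 1, Casp4, was lower over 7 libraries, and 3 were lower and 1, Il1r1, higher without that library. The 1 higher over 7 libraries was Pdk1, a kinase that inhibits pyruvate dehydrogenase, at 21.1, 40 and 42.4 CPM in KRM and 12.6, 8.9, 14.8 and 13.5 CPM in CD11clo Mϕ. For Pdk1 the log2 fold change was 1.47 ± 0.30 (SE, adjusted p = 0.0348), and 1.70 ± 0.24 (SE, adjusted p = 0.0101) without KRM RAS replicate 1. Flt3, a receptor of dendritic cells and their precursors, was 10.5, 4.8 and 3.13 CPM in KRM and 28.4, 34.4, 18.7 and 37.1 CPM in CD11clo Mϕ. For Flt3 the log2 fold change was -2.27 ± 0.47 (SE, adjusted p = 0.0348), and -2.92 ± 0.39 (SE, adjusted p = 0.00953) without KRM RAS replicate 1. Flt3 was the 1 of 12 dendritic cell markers called over 7 libraries, and without KRM RAS replicate 1 Btla was lower too and Kit higher. In the lists for which this was not given above, the called genes that passed the filter on low counts through 1 group alone were Timd4, Cxcl3, Cd300e and Vsig4 (CD11clo Mϕ) and Sall1, Tyro3 and Rgs5 (KRM). These genes were named after their values were seen.

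**Figure D5:**
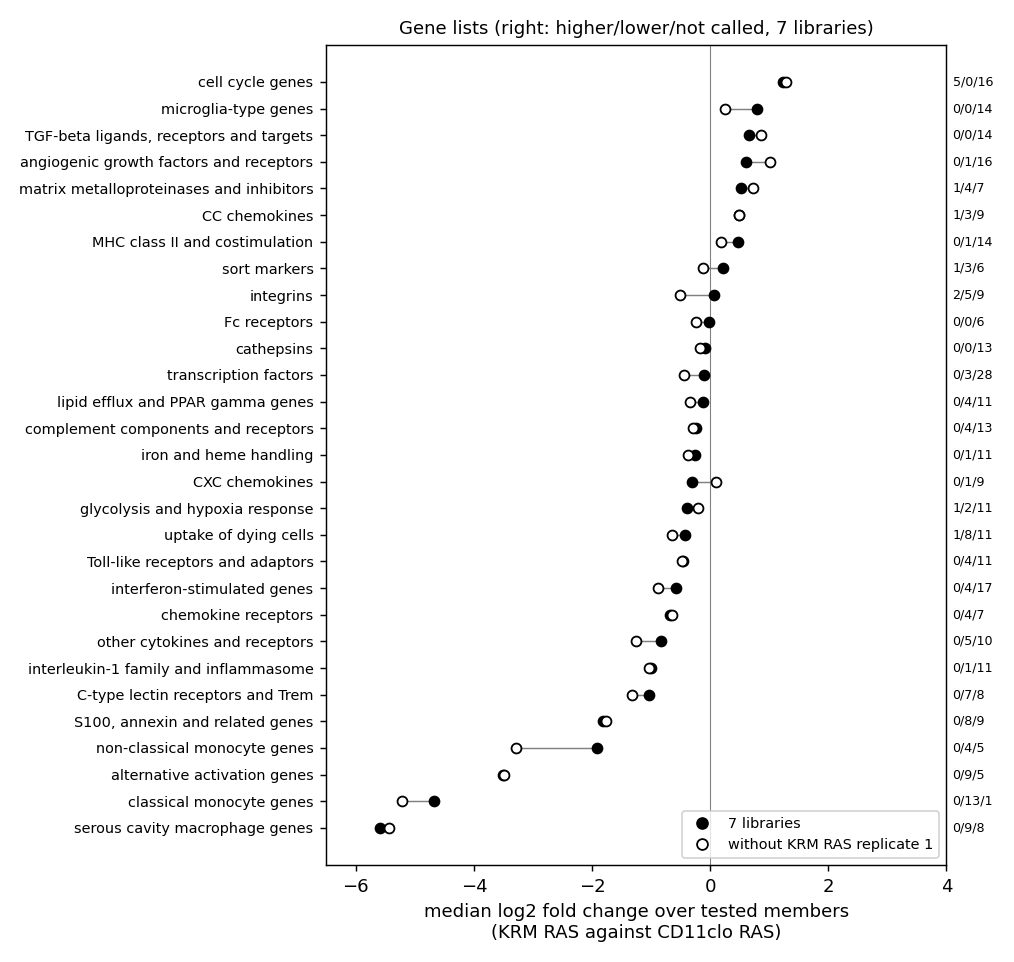
Median log2 fold change of KRM RAS over CD11clo RAS for the tested members of each list of macrophage biology (marker lists of other cell types are not drawn), with all 7 libraries (filled) and without KRM RAS replicate 1 (open). The numbers at the right are the members called higher, lower and not called over 7 libraries. Classical monocyte genes (-4.68) and serous cavity macrophage genes (-5.59) lie lowest in both, and cell cycle genes (1.24 and 1.28) highest over all 7.

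The same populations from Sham kidneys share no library with these 7. In Sham kidneys 1474 genes were more than 2-fold higher in KRM and 1420 more than 2-fold lower, at an adjusted p under 0.05 (at any fold, 19.5% of 12365 genes were called higher and 22.4% lower). Of the Sham-lower genes, 536 of the 1402 tested (38.2%) were also called lower in RAS kidneys, against 5.89% of all genes, and 615 of 1416 (43.4%) without KRM RAS replicate 1, against 10.4%. Their median log2 fold change was -1.21, where it was -1.95 in Sham. Of the Sham-higher genes, 54 of 1364 (3.96%) were called higher in RAS kidneys, against 3.28% of all genes, and 96 of 1372 (7%) without KRM RAS replicate 1, against 12.6%. A share near or below the background is not a result about these genes. Their fold change was positive in 92.3% (77% without KRM RAS replicate 1), against 53% (51.3%) of all genes, with a median of 0.772 (0.551), where it was 1.77 (1.78) in Sham. The Sham-lower and Sham-higher genes were chosen by their fold change in Sham, which favours larger medians there. The medians are therefore no test of a change between kidneys. The difference between populations itself was compared between RAS and Sham kidneys by an interaction test. Over 14 libraries 34 of 13877 genes passed, 31 with a more positive difference in RAS (0.223%) and 3 with a more negative one (0.0216%). None passed without KRM Sham replicate 1, 2 or 3 by edgeR, with 3109, 2725 and 3374 genes at an unadjusted p under 0.05, and DESeq2 called 1420 on the 14 libraries. With the replicate numbers as a block 1 gene passed, none of the 34. Without KRM RAS replicate 1 it was 2357 of 14638, 1205 positive (8.23%) and 1152 negative (7.87%), and 1466 with the block.

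Among genes that passed in both fits with an average log2 CPM of at least 3, those named here for a large positive interaction were low in Sham KRM and high in KRM RAS replicates 2 and 3. Cd24a, found on many epithelial and myeloid cells, was 14.5, 445 and 319.7 CPM in KRM and 533, 494, 135 and 295 CPM in CD11clo Mϕ in RAS kidneys. In Sham kidneys it was 3.4, 3.47, 5.99 and 3.09 CPM in KRM and 519, 729 and 379 CPM in CD11clo Mϕ. Its interaction was 6.56 ± 1.10 (SE, adjusted p = 0.0394), and 7.09 ± 0.63 (SE, adjusted p = 0.000145) without KRM RAS replicate 1. Fam174b, Tesc and Serpinb1a followed, with interactions of 7.54, 6.23 and 6.09 (log2). In KRM RAS replicate 1 each of these genes was below both of the other KRM RAS libraries. Epithelial markers were high in those libraries, and their part was not tested. Of the 3 genes with a negative interaction, Tmbim1 was the 1 with an average log2 CPM of at least 3, at 214, 147 and 169.8 CPM in KRM and 87.1, 108, 151 and 119.6 CPM in CD11clo Mϕ in RAS kidneys, where KRM exceeded CD11clo Mϕ less than in Sham (interaction -1.49 ± 0.27 (SE, adjusted p = 0.0488) and -1.69 ± 0.27 (SE, adjusted p = 0.00378)). Some genes described above passed without KRM RAS replicate 1 alone, and those given here were picked after their values were seen. Tmem119, Cx3cr1 and Csf1r, higher in Sham KRM than in Sham CD11clo Mϕ, had negative interactions. Tmem119 had an interaction of -3.85 ± 1.03 (SE, adjusted p = 0.0269), Cx3cr1 of -2.18 ± 0.44 (SE, adjusted p = 0.00924) and Csf1r of -1.45 ± 0.32 (SE, adjusted p = 0.0132). Positive interactions were seen for Vegfa, 3.47 ± 0.86 (SE, adjusted p = 0.0198), Il6, 4.23 ± 0.85 (SE, adjusted p = 0.00875), and Ccl2, 2.64 ± 0.57 (SE, adjusted p = 0.0119), genes that were far lower in Sham KRM than in Sham CD11clo Mϕ. Over all 14 libraries the adjusted p of these 6 was 0.0968, 0.0889, 0.102, 0.115, 0.101 and 0.105 in the order named.

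KRM RAS replicate 1 can also be described by the genes in which it lay farthest from the mean of KRM RAS replicates 2 and 3 on the log2 CPM scale, a description with no test. Farthest above were immunoglobulin genes and genes of circulating cells. Igkv3-2 was 131, 0 and 2.74 CPM in KRM (difference 7.37), Ighv11-2 70.9, 0.277 and 1.86 CPM (difference 6.14), and S1pr5, a sphingosine-1-phosphate receptor of NK cells and patrolling monocytes, 11.5, 0 and 0.294 CPM (difference 5.15). Retnlg was 6.44, 0.185 and 0.0979 CPM in KRM, where CD11clo Mϕ held 1242, 758, 150.3 and 389.7 CPM. Farthest below were genes of the collecting duct. Aqp2, the vasopressin-regulated water channel of principal cells, was 0.302, 629 and 445 CPM in KRM and 0, 0, 0.333 and 21.6 CPM in CD11clo Mϕ (difference -10.00). Foxi1, the factor that specifies intercalated cells, was 0.101, 90.2 and 90.3 CPM in KRM and 0, 0, 1.11 and 3.21 CPM in CD11clo Mϕ (difference -8.17), and Atp6v1b1, their proton pump subunit, was 0, 114 and 82.7 CPM in KRM and 0, 0, 2.33 and 2.57 CPM in CD11clo Mϕ (difference -8.83). Hsd11b2, which protects the mineralocorticoid receptor from glucocorticoid, was 0.704, 338 and 249 CPM in KRM and 0, 0, 0.888 and 7.19 CPM in CD11clo Mϕ (difference -8.30). In all 4 genes KRM RAS replicate 1 was within the range of the CD11clo Mϕ. Of the 1779 genes called higher without KRM RAS replicate 1, that library was nearer to the CD11clo mean than to the mean of the other KRM in 80.7%, and of the 1460 called lower in 38.8%. These genes were called because replicates 2 and 3 lay far from CD11clo Mϕ, which draws a library left out toward the CD11clo mean. The shares are therefore no test.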

How the data were processed

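RNA from sorted macrophages of mouse kidney was sequenced, and 7 libraries of stenotic kidneys were compared, with 7 Sham libraries of the same populations for the interaction. The authors aligned reads to mm10 with the OSA aligner and deposited estimated counts per gene from Ensembl annotation, of which 9.7% to 14.2% per library were not whole numbers. They were rounded here after lines of the same symbol were summed (37620 lines, 34236 symbols). The authors also deposited a quantile-normalized log2 table of TPM values, used only for an alternative, in which the column of KRM RAS replicate 1 did not match its counts (r = 0.106 across 11965 genes, which are not independent, against 0.88 to 0.95 for the other libraries). No column was left unmatched to a sample (0).

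Genes were filtered by filterByExpr (minimum count 10, minimum total 15) and scaled by TMM. They were tested by edgeR's quasi-likelihood test (edgeR 4.0.16, limma 3.58.1, R 4.3.3) with Benjamini-Hochberg adjustment at 0.05. Distances, the Sham axis and the differences of KRM RAS replicate 1 rest on log2 CPM with about 2 counts added per library. The fold changes of the test do not carry this addition, so those near 0 counts are hardly shrunk. DESeq2 1.42.0 and limma were alternatives, with other scalings, filters, a fit over all 6 groups, a replicate block and each library left out. In Sham kidneys same-numbered libraries correlated in their deviations at 0.217, 0.261 and 0.563, each the highest for its KRM library. The numbers were therefore taken from the data to pair them. KRM Sham replicate 4 has no partner, yet correlated at 0.233 with CD11clo Sham replicate 2, so the pairing is uncertain. The Sham counts and the main interaction come from fits without the pairing. The labels do not state a pairing. With the block 4263 genes were called in Sham kidneys, against 5185. The fits were tested on simulated data with known changes. Totals were 8667523 to 9960701 counts per library, and intervals and floors cover counting error only.

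The members and gene lists were chosen with earlier results of these data known. Named were the 10 genes per direction with the largest log2 fold change among those called with and without KRM RAS replicate 1, not overlapping, with an average log2 CPM of at least 3 and a gene symbol that is not a predicted name. From each list up to 4 called members were named, with members that define its subject, and for the interaction up to 5 per direction. Some genes that this rule selects are not reported here. For KRM RAS replicate 1, the 10 genes farthest in each direction from the other KRM RAS libraries were eligible, and a selection of them is given. Promoters are from RefSeq (GRCm38.p6).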

Additional observations from a re-analysis of the deposited data

Results flagged for a closer look

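In 173 checks of the 4 CD11clo RAS libraries (130 genes and 43 summed lists), 13 had 1 library far from the other 3, by the gap to its nearest neighbour as a share of the whole range (Dixon's test at 95%). Chance marks about 1 in 20 groups of this size. In 9 of the 13 the library was replicate 3, always the highest. Emr1 was 1810 CPM there, against 734 to 890 CPM in the others (gap 0.855 of the range), and Fcgr1 240 CPM against 124 to 127 CPM (0.973). The 3 chains of complement C1q shared this pattern. C1qa was 1920 CPM against 306 to 475 CPM (0.895), C1qb 4280 CPM against 701 to 1250 CPM (0.847) and C1qc 2580 CPM against 507 to 723 CPM (0.895). Mmp13 was 195 CPM against 4.7 to 29 CPM (0.872), and Epor, the erythropoietin receptor, 16.4 CPM against 0.866 to 2.78 CPM (0.877). The summed genes of lipid efflux and PPAR gamma were 20500 CPM against 6350 to 8150 CPM (0.873), and erythroid markers 673 CPM against 70.4 to 109 CPM (0.936). In replicate 2, Timd4 was 79.4 CPM against 12.6 to 14.1 CPM (0.977) and Lyve1 226 CPM against 55 to 60.8 CPM (0.966). In replicate 1 Casp4, an inflammatory caspase, was lowest at 45.6 CPM against 66.9 to 69.6 CPM (0.886), and in replicate 4 collecting duct markers were highest at 69 CPM against 0.477 to 11.1 CPM (0.845).

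The difference between KRM and CD11clo Mϕ itself differed between RAS and Sham kidneys in 34 genes over 14 libraries, and in 2357 without KRM RAS replicate 1. With the replicate numbers as a block these counts were 1, which was none of the 34, and 1466. Among the genes named in the report, the interaction (log2) was 8.94 for Ncr1, 7.54 for Fam174b, 6.56 for Cd24a, 6.23 for Tesc, 6.09 for Serpinb1a, 2.42 for Ahnak, 1.85 for Cfp and -1.49 for Tmbim1. It was 2.26 for Fabp5, a fatty acid binding protein.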

How the results depend on the processing

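The count of called genes over 7 libraries, 1208, was 1838 in one fit over all 6 groups, 3216 by DESeq2, and 735 and 647 by limma on the deposited log2 table with pseudocounts of 1 and 0.1, in which KRM RAS replicate 1 did not match its counts. Leaving out 1 library gave 0 to 3239, the highest without KRM RAS replicate 1 and 0 by edgeR without KRM RAS replicate 2 or 3 (2854 and 2862 genes at an unadjusted p under 0.05; other tools were not run on those libraries). Without KRM RAS replicate 1 the count of 3239 was 2064 with at least 10 counts in every library, and 2 to 4339 with a further library left out, highest without CD11clo RAS replicate 3. The lowest counts, 2 and 8 without KRM RAS replicate 2 or 3, come from 1 KRM library, assumed to vary like CD11clo Mϕ. The interaction count of 34 was 59 with median-of-ratios factors, 1420 by DESeq2, and 0 to 2357 with 1 library left out, with 0 without KRM Sham replicate 1, 2 or 3 (3109, 2725 and 3374 at an unadjusted p under 0.05). Without KRM RAS replicate 1 it was 2357, and 299 to 2474 with a further library left out, lowest without KRM RAS replicate 2, where 1 KRM RAS library is assumed to vary like the other groups. Scaling by total counts moved the median of all genes from 0.0562 to 0.267 (log2). The cause of these differences was not tested.

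Same-numbered RAS libraries correlated in their deviations at 0.546, 0.0883 and 0.227, and of the 3 KRM RAS libraries only replicate 1 correlated best with its own number, so the RAS numbers were not taken to pair the samples. With the replicate block the count over 7 libraries was 1117, with the split turned to 649 higher and 468 lower from 432 and 776, and 614 (50.8%) of the 1208 genes were among them. It was 1527 without KRM RAS replicate 1 (1039 higher and 488 lower), 1 for the interaction and 1466 for the interaction without that library.

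Of 103 named genes called in the report, 1142 of 1710 repeated values kept direction and call, 566 lost the call and 2 reversed, both Hk2 by limma (0.103 and 0.0682). Among genes not called, direction reversed by limma for Cx3cr1 (-0.133 at both pseudocounts) and Il10 (0.359 and 0.392). With 1 library left out, values ranged from -0.0133 to 0.567 for Emr1, -0.201 to 0.391 for Fcgr1, -0.187 to 0.637 for Cx3cr1 and -0.049 to 0.596 for Spn, each negative without KRM RAS replicate 1. Fcgr1 was also negative without CD11clo RAS replicate 1, 2 or 4 (-0.0365, -0.0321 and -0.0247).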
